A study of Mus musculus with 57 samples.

Results

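Inguinal white adipose tissue (WAT) mRNA was compared between 8 homozygous Mfn2 R707W knock-in (KI) mice fed a high-fat diet (HFD) and 6 KI mice fed chow. The comparison takes every KI column of the inguinal HFD count table and every KI column of the inguinal chow count table, joined on gene symbol, which gives 14 of the 41 columns of mouse and tissue in the series and 22 of its 57 sequenced samples. All 14 mice were male and carried the R707W change on both endogenous Mfn2 alleles, so the mutant protein was made in every cell that uses the gene. The colony was expanded from 1 founder on a C57/BL6J background. From an age of 5 weeks, as the labels give it (the study's own text also gives an older age), the mice received either HFD (Research Diets D12451i, with 45% of kcal from fat and 4.7 kcal/g) or chow (Safe Diets R105-25) for 6 months, and they were fasted before tissue was taken. The inguinal fat of wild-type (WT) mice, 7 on chow and 8 on HFD from the same tables, is used only to show where the diet difference of KI mice departs from that of WT mice.

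Mfn2 is a GTPase of the outer mitochondrial membrane that joins mitochondria to each other and to the endoplasmic reticulum. Adipocytes make fatty acids from glucose by converting mitochondrial citrate to acetyl-CoA in the cytosol and extending it, a pathway driven by the transcription factors SREBP1c and ChREBP and turned down when dietary fat is plentiful. They store fatty acids as triglyceride in lipid droplets, burn a smaller part in mitochondria, and release hormones such as leptin in proportion to fat stores.

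Diet cannot be told apart from the count table, the sequencing depth or the number of libraries per mouse. The HFD columns hold the reads of 2 technical libraries per mouse and the chow columns those of 1. Total counts were 17572752 to 24498516 per HFD mouse and 8921120 to 11229208 per chow mouse, and genes with at least 1 count numbered 21887 to 23482 and 19702 to 21234. Both measures separated the diets completely (2-sided exact permutation test, p = 0.000333, the smallest that 3003 divisions of 14 mice allow, adjusted p = 0.003 over 18 library measures). As an HFD column adds 2 libraries and a chow column holds 1, this test cannot bear on the mice themselves. Levels below are CPM, a gene's counts relative to its library's total with library sizes scaled by TMM, log2 fold changes are HFD over chow, and genes past an adjusted p of 0.01 in edgeR's quasi-likelihood test are named as called.

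Adipocyte markers summed to 32122 to 42856 CPM on chow and 31111 to 47201 CPM on HFD, so adipocyte transcripts were abundant in every mouse. A few mice also carried transcripts of other tissues. Chow mouse 4 had 102164 CPM over the 22 skeletal muscle markers against at most 509.9 CPM in the other chow mice, while HFD mice 3 and 5 had 7153 and 3854 CPM and the other 6 HFD mice at most 498.6 CPM. B cell markers summed to 1579 CPM in chow mouse 3, 769.7 CPM in chow mouse 1 and 1723 CPM in HFD mouse 2, and to at most 257 CPM in the other 11 mice. None of the 20 muscle, 11 B cell or 12 T and NK cell markers tested was called by edgeR, where 2, 0 and 1 had an unadjusted p under 0.05, and DESeq2 called 0, 2 and 1. The part of these tissues in other genes was not tested. Results are therefore also given without these 4 mice (chow mice 1, 3 and 4, HFD mouse 2), a choice made after the values were seen. HFD mice 3 and 5 stay in, so that this choice turns the median log2 fold change of the muscle markers from -2.96 to 5.14, higher on HFD. In a bulk tissue, fewer cells of a type and less RNA per cell cannot be told apart.

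**Figure D1:**
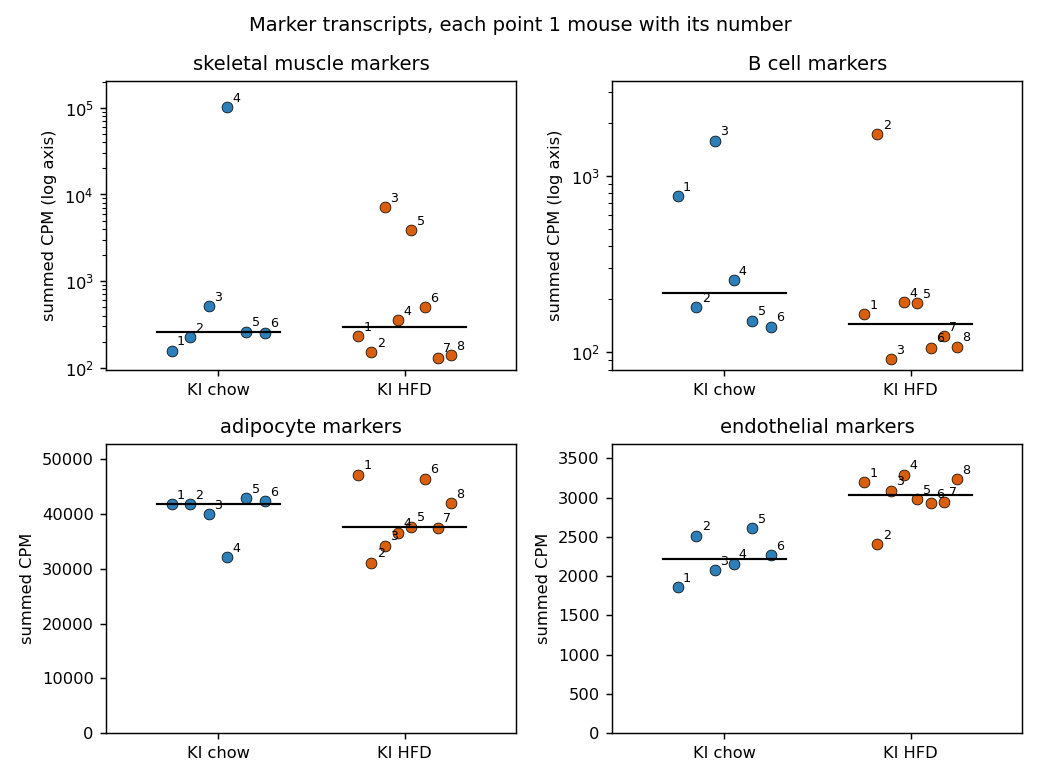
Summed CPM of marker lists in each KI mouse, chow (6 mice) on the left and HFD (8 mice) on the right of each panel, with muscle and B cell panels on a log axis and lines at the medians. Chow mouse 4 stands apart for skeletal muscle at 102164 CPM, and chow mice 1 and 3 and HFD mouse 2 for B cell markers at 769.7, 1579 and 1723 CPM.

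Between the diets, 4923 of 16243 genes tested were called (30.3%), 2244 of them higher on HFD (13.8%) and 2679 lower (16.5%). In 2863 genes (17.6%) the diets did not overlap, meaning that every HFD mouse lay on one side of every chow mouse. An absolute log2 fold change above 1.5 with an adjusted p below 0.001 was reached by 363 genes (2.23%), 200 higher and 163 lower. Without chow mouse 4, the one with the most muscle transcripts, 4560 genes were called, and without all 4 mice 4139 were called and 175 passed the stricter rule. Counts of list members below are to be read against these shares. For the lists given below with calls in 1 direction only, DESeq2 gave at most 1 call in the other direction and at most 3 members there had an unadjusted p under 0.05.

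Gene length moved with diet. Among protein-coding genes with gene models of 500 to 1000 bases the median log2 fold change was -0.53 and 44.6% were called lower, whereas above 9000 bases it was 0.21 and 27.7% were called higher. Across 13609 protein-coding genes Spearman's rho between length and fold change was 0.34, in KI and in WT mice alike, and that between length and the difference of the genotypes' fold changes was 0.03. Whether library preparation, depth or diet lies behind this trend cannot be told apart, since all 3 coincide. Where a list holds short or long genes, its count is given again after each mouse's smooth trend over length had been taken out, an alternative added after the data were seen that left 4424 genes called and a rho of 0.07.

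**Figure D2:**
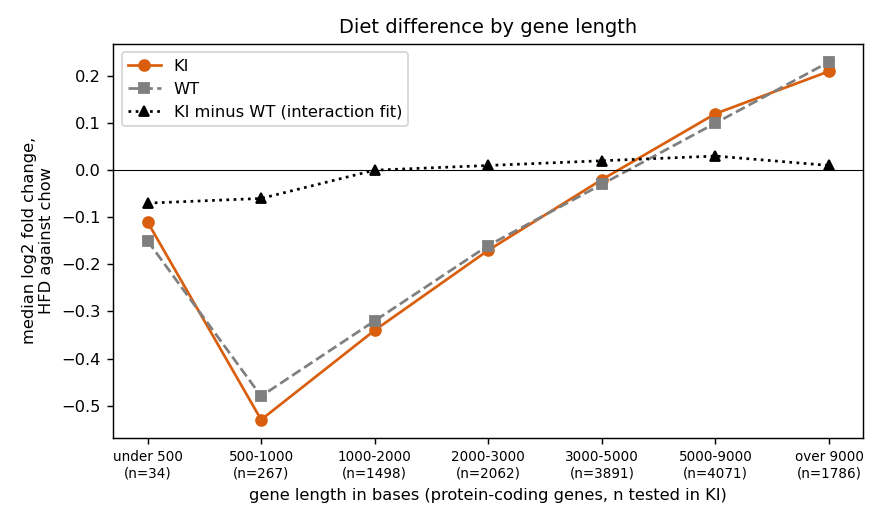
Median log2 fold change (HFD over chow, y axis) of protein-coding genes in classes of gene model length (x axis, bases) in KI and WT mice, and of the difference between them. In KI mice the median runs from -0.53 in the class of 500 to 1000 bases to 0.21 above 9000 bases, the WT medians of these classes are -0.48 and 0.23, and the difference stays between -0.07 and 0.03.

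Genes of fatty acid synthesis held several of the largest falls. Of 19 tested genes of this list, 14 fell on HFD and 1 rose, with a median log2 fold change of -1.69 against 0.02 over all genes tested. Fasn, fatty acid synthase (chromosome 11, 120805846 to 120824547 in GRCm38), had the fifth largest fall among genes whose diets did not overlap. Elovl6, which elongates palmitate (chromosome 3, 129532355 to 129638495), and Slc25a1, which carries citrate out of mitochondria (chromosome 16, 17925223 to 17928219), fell with it. The 250 bases before the start of these genes are shown because they are the proximal promoters of the genes of this list that fell most. They are read from RefSeq for GRCm38.p6 in the direction of the gene. The RefSeq start of Elovl6 lies inside the span given above, so that its window ends at 129532385, past the first base of that span at 129532355. Capitals mark CCAAT or its complement ATTGG, the box bound by NF-Y, a partner of SREBP, and CACGTG, the E-box core.
Fasn, chr11:120824548-120824797, minus strand: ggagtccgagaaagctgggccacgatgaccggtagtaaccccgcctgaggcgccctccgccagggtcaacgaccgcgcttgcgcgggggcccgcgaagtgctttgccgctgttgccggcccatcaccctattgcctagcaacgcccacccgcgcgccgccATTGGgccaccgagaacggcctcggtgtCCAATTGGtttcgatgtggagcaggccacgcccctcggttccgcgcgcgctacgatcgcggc
Slc25a1, chr16:17928220-17928469, minus strand: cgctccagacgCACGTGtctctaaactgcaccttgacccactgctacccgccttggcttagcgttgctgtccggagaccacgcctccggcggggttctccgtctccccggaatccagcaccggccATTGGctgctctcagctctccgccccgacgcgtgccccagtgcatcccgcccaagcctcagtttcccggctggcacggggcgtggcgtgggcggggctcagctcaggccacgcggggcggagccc
Elovl6, chr3:129532136-129532385, plus strand: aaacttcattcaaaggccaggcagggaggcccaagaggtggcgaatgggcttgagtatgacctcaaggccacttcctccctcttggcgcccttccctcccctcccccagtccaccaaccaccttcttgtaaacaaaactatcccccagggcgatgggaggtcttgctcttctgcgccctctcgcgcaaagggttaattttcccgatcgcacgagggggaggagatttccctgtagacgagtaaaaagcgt

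The Fasn window holds 3 CCAAT boxes that begin 90, 62 and 59 bases before the start, the last pair overlapping on opposite strands. In Slc25a1 a CCAAT box begins 125 bases and an E-box 239 bases before the start, and neither motif is in the Elovl6 window. Searched on both strands from 250 bases before to 50 bases after the start, CCAAT was present in 11 of the 17 fatty acid synthesis genes with a RefSeq promoter (64.7%), in 14 of 15 cholesterol synthesis genes (93.3%) and in 41.1% of 27025 genes. The E-box CACGTG was present in 3 of the 17 (17.6%) against 8.09% of all genes, and the SREBP element TCACNCCAC in 1 (5.88%) against 1.44%. Those E-boxes lay in Mlxipl, Elovl5 and Slc25a1 and the SREBP element in Mlxipl, and neither Mlxipl nor Elovl5 was called between the diets. The motif shares are counts of letters and not of binding.

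Fasn lay at 19258, 4935, 8175, 4026, 2022 and 4266 CPM in chow mice 1 to 6. On HFD it lay at 941, 234.8, 616.7, 386.9, 473.8, 579.5, 410.3 and 229.1 CPM in mice 1 to 8. The highest HFD mouse stayed below the lowest chow mouse, and chow mouse 1 stood far above the rest of its group. Fasn fell by 3.90 on the log2 scale (SE 0.485, adjusted p = 2.62e-05), and by 3.31 without chow mouse 1 and 2.89 without the 4 mice (chow mice 1, 3 and 4 and HFD mouse 2). Elovl6 ranged from 41.9 to 614.4 CPM on chow (median 106.5) and from 8.37 to 21.8 CPM on HFD (median 9.94), again without overlap. Its log2 fold change was -4.31 (SE 0.567, adjusted p = 6.18e-05), and -2.81 without the 4 mice. Slc25a1 ranged from 405 to 3618 CPM on chow (median 742.6) and from 109.8 to 192.9 CPM on HFD (median 156), a fold change of -3.01 (SE 0.411, adjusted p = 5.42e-05).

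Genes for the steps between citrate and palmitate moved with these genes. Acly, which splits citrate into acetyl-CoA, fell by 2.92 on the log2 scale, from a chow median of 620.3 CPM to an HFD median of 126.9 CPM. Acaca, which makes malonyl-CoA, fell by 2.63, Me1, a source of NADPH, by 1.92, and Thrsp, a lipogenic coactivator, by 2.75. The desaturase genes divided. Scd1, the main desaturase of adipocytes, lay at 6576 to 23416 CPM on chow and 7714 to 17615 CPM on HFD, and its log2 fold change of 0.32 was not called (SE 0.274, adjusted p = 0.363), while Scd2 fell by 1.80. Fads1, the delta-5 desaturase of polyunsaturated fatty acids, was the member that rose, from 43.4 to 60.9 CPM on chow to 71.9 to 111.9 CPM on HFD (log2 fold change 0.74, SE 0.0986, adjusted p = 2.74e-05). Of the regulators, Srebf1 fell by 0.90 (adjusted p = 0.00489) and Mlxipl, which encodes ChREBP, had a log2 fold change of -0.67 that was not called (adjusted p = 0.0573). Acly, Acaca, Me1, Thrsp, Scd2, Mlxipl and Elovl5 were named after their values had been seen. Without chow mouse 1 the list still gave 14 falls and 1 rise with a median of -1.46, and without the 4 mice 11 falls and 1 rise with a median of -1.21. Srebf1 and Scd2 were not called without the 4 mice (-0.49 and -0.87).

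**Figure D3:**
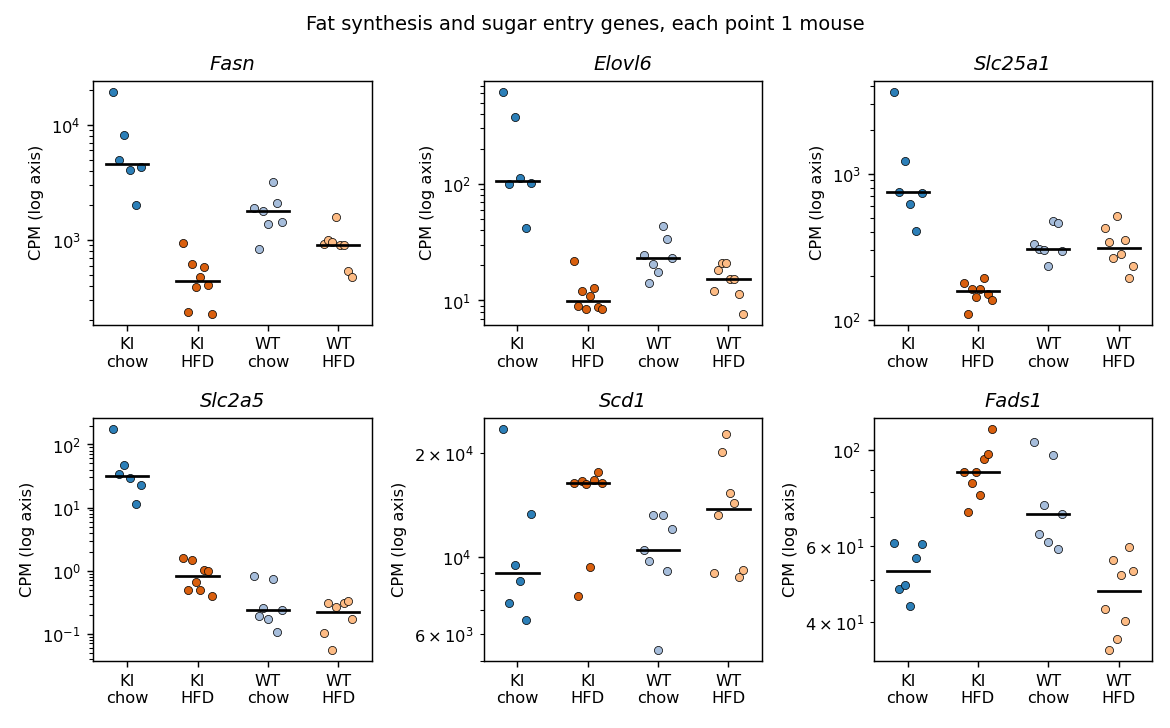
CPM (log axis) of lipogenic genes in each inguinal sample, by genotype and diet, with bars at the group medians (1 WT HFD mouse at 0 for Slc2a5 is not drawn). Every KI HFD mouse lies below every KI chow mouse for Fasn (229.1 to 941 against 2022 to 19258 CPM), and the diets overlap for Scd1.

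Genes of sugar use moved the same way. Of 29 tested genes of glucose uptake and glycolysis, 20 fell and 2 rose, with a median log2 fold change of -0.92. Without chow mouse 4, 20 fell and 1 rose (median -0.72), and without the 4 mice 17 fell and 2 rose (median -0.58). The largest fall of all genes whose diets did not overlap was that of Slc2a5, the fructose transporter GLUT5 (chromosome 4, 150119283 to 150144169). It lay at 11.5 to 177.3 CPM on chow (median 32.1) and at 0.389 to 1.61 CPM on HFD (median 0.824). Slc2a5 fell by 5.96 on the log2 scale (SE 0.636, adjusted p = 1.11e-05), and by 4.64 without the 4 mice. Within glycolysis, Pkm, pyruvate kinase, ranged from 723.5 to 2117 CPM on chow and from 353 to 474.5 CPM on HFD and fell by 1.71 (SE 0.211, adjusted p = 1.3e-05). Ldha, lactate dehydrogenase, fell by 1.41 and Aldoa, aldolase, by 1.70. Aldoa is also abundant in muscle and reached 12037 CPM at its highest, and its fold change was -1.24 without chow mouse 4 and -0.74 without the 4 mice, still called. In the pentose phosphate pathway Tkt, transketolase, fell by 2.40, whereas G6pdx, which commits glucose-6-phosphate to the pathway, rose by 0.51 and was not called without chow mouse 4 (0.44). Hk1, a hexokinase, rose by 0.62 (SE 0.0897, adjusted p = 5.06e-05). Slc2a4, the insulin-responsive transporter GLUT4, fell by 0.68 (adjusted p = 0.00298), and without the 4 mice its fold change was -0.27 and no longer called.

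Genes for the esterification of fatty acids followed. Of 13 triglyceride synthesis genes 9 fell and none rose (median -0.98). Agpat2, an acyltransferase whose loss causes lipodystrophy, ranged from 473.2 to 1847 CPM on chow (median 536.4) and from 129.6 to 311 CPM on HFD (median 227.2), a log2 fold change of -1.81 (SE 0.31, adjusted p = 0.000293). Dgat2, which adds the last acyl chain and was named after its value had been seen, fell by 1.30, and the monoacylglycerol acyltransferases Mogat1 and Mogat2 by 1.69 and 1.97. Of 15 lipid droplet and lipolysis genes 5 fell and none rose (median -0.18). Plin2, a droplet coat protein, fell by 1.24, Plin5, which tethers droplets to mitochondria, by 1.77, and Bscl2, which encodes seipin, by 0.98. Angptl8, an insulin-induced inhibitor of lipoprotein lipase that was named after its value had been seen, went from 14.2 to 67.8 CPM on chow to 3.93 to 10.9 CPM on HFD, without overlap (log2 fold change -2.02, adjusted p = 0.000112).

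Genes of cholesterol synthesis moved less. Of 19 tested 7 fell and none rose (median -0.38). Pmvk, phosphomevalonate kinase, fell by 1.80 and Acat2, which makes acetoacetyl-CoA, by 1.43, both without overlap between the diets. Hmgcs1, the synthase that supplies HMG-CoA, lay at 84.1 to 200 CPM on chow and 139.5 to 217.7 CPM on HFD and was not called (log2 fold change -0.04, adjusted p = 0.855). Sqle, squalene monooxygenase, and Mvk, mevalonate kinase, fell by 0.68 and 0.38 (adjusted p = 0.00332 and 0.00322). Insig1, a SREBP-dependent brake on the pathway, fell by 0.77 (adjusted p = 0.000524). Pmvk and Acat2 are short genes, and after the length trend was taken out their fold changes were -1.59 and -1.30 and 5 of the list were lower. Without the 4 mice 4 were lower.

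Nuclear genes of the respiratory chain fell almost as a block. Of 74 tested subunits 71 were called lower and none higher, all 74 log2 fold changes were negative (median -1.0), and 64 did not overlap between the diets. Their median gene model length is 1737 bases, within the short classes that had lower values as a whole, and after the length trend was taken out 67 were called lower with a median of -0.86. Atp5k, a small subunit of ATP synthase, ranged from 76.3 to 156.3 CPM on chow (median 107.6) and from 20.6 to 29.2 CPM on HFD (median 24.8). It fell by 2.22 on the log2 scale (SE 0.14, adjusted p = 7.51e-08). Ndufa2 of complex I fell by 1.97 and Sdhb, the iron-sulphur subunit of complex II, by 1.06, from 298.6 to 406.6 CPM to 120.4 to 181.9 CPM. Atp5b, the catalytic subunit of ATP synthase, fell by 0.61, from 1994 to 2567 CPM to 1182 to 1942 CPM.

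The 13 mRNAs encoded in mitochondrial DNA did not share this pattern. None was called in either direction by edgeR or DESeq2, 3 had an unadjusted p under 0.05, and their median was 0.01. They do not carry equal weight. On chow, mt-Nd3, mt-Nd4l, mt-Co2, mt-Co3, mt-Atp6 and mt-Atp8 had means of 0.733 to 17 CPM, and the others means of 818.3 to 6828 CPM. Mt-Co1, a subunit of complex IV, lay at 4870 to 12941 CPM on chow (median 5819) and at 6155 to 11927 CPM on HFD (median 7164), with a log2 fold change of 0.18 (SE 0.224, adjusted p = 0.538). The highest of the chow values belongs to chow mouse 4, which has the most muscle transcripts and whose mitochondrially encoded share of counts was 3.84% against at most 2.01% in the other 5. Without the 4 mice named above, 4 of the 13 were called higher and the median was 0.31.

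Other mitochondrial lists fell in part. In the TCA cycle 16 of 22 genes were lower and none higher (median -0.54), among them Pcx, pyruvate carboxylase, by 1.41 and Sdhd by 1.10. Of 20 fatty acid oxidation genes 14 fell and 1 rose (median -0.70). Etfb, the electron transfer flavoprotein subunit, fell by 2.51 on the log2 scale (59.1 to 195.4 CPM on chow, 14.2 to 22 CPM on HFD, adjusted p = 1.29e-06) and Acadvl, the very long chain acyl-CoA dehydrogenase, by 1.36. Cpt1a, which admits long acyl chains to mitochondria, rose from 40.3 to 87.9 CPM on chow to 102.2 to 130.9 CPM on HFD (log2 fold change 0.86, SE 0.142, adjusted p = 0.000166). In the breakdown of branched-chain amino acids 11 of 18 genes fell and none rose (median -0.52), with Mccc1 and Pccb lower by 0.92 and 0.90. Mitochondrial chaperones and proteases fell in 10 of 15 cases (median -0.40), for example Hspa9, the matrix HSP70, by 0.76 and the protease subunit Clpp by 0.79.

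Thermogenic genes gave some of the largest falls. Of 14 tested, 7 fell and none rose (median -0.93). Cox8b, a complex IV isoform of brown and beige adipocytes, ranged from 79.6 to 398.7 CPM on chow (median 214.8) and from 7.67 to 22.4 CPM on HFD (median 15.5). It fell by 3.81 on the log2 scale (SE 0.356, adjusted p = 3.18e-06), and Cidea, a droplet protein of the same cells, fell by 3.37 (SE 0.437, adjusted p = 5.07e-05). Cox7a1 fell by 2.31, but its highest chow value, 127.6 CPM, lay far above the chow median of 15.1 CPM and raised the chow mean to 33.2 CPM. Ucp1 was too low to be tested. Without chow mouse 4, which had the most muscle transcripts, 7 thermogenic genes fell and the median was -0.64. Without the 4 mice 5 fell and the median was -0.37.

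Of the genes of mitochondrial fusion and fission, 6 of 10 fell and 1 rose (median -0.33). Mfn2 itself lay at 210.3 to 276.7 CPM on chow and 168.2 to 272.9 CPM on HFD and was not called (log2 fold change -0.16, SE 0.0977, adjusted p = 0.191). Its mRNA level is no check of genotype, since the knock-in changes a codon and not the gene's dose. Mfn1 fell by 0.33 (adjusted p = 0.00908) and was called in 3 of the 14 fits that left out 1 mouse. Fis1, an adaptor of fission, fell by 0.47, and Dnm1l, the dynamin that divides mitochondria, rose from 51.4 to 73.6 CPM to 77.9 to 108.2 CPM (log2 fold change 0.52, SE 0.0979, adjusted p = 0.000472). Without the 4 mice 1 gene of the list fell and 1 rose, and neither Mfn1 nor Fis1 was called.

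Genes of the integrated stress response, in which the kinases of eIF2alpha raise ATF4 and its targets, moved in both directions. Of 44 genes tested 9 fell and 2 rose (median -0.09), shares of 20.5% and 4.55% beside 16.5% and 13.8% of all genes. Atf4 lay at 190.1 to 369.4 CPM on chow and 240.5 to 343.2 CPM on HFD (log2 fold change 0.03, adjusted p = 0.875). Atf5 lay at 759.7 to 1542 CPM on chow and 457.4 to 1039 CPM on HFD (log2 fold change -0.39, SE 0.174, adjusted p = 0.0832). Ddit3, Trib3, Mthfd2, Fgf21 and Gdf15 were not called either, with log2 fold changes between -0.94 and -0.18, but Ddit3 was called lower without the 4 mice (-0.34, adjusted p = 0.0063). Chac1, which degrades glutathione, was the member that fell most, from 15.8 to 45.3 CPM to 11.4 to 19.4 CPM (log2 fold change -1.09, SE 0.183, adjusted p = 0.000202), and Gadd45a fell by 0.62. The glycine transporter gene Slc6a9 rose by 0.90 and Aldh18a1, of proline synthesis, by 0.34. Gadd45a was not called after the length trend was taken out (-0.42), nor Aldh18a1 without the 4 mice (0.29). HFD mouse 2, one of the mice with B cell transcripts, had the lowest HFD values of Atf4, Atf5 and Ddit3. Of 24 ER chaperones and quality control genes 4 fell and none rose (median -0.04), with Derl1 lower by 0.93.

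Among NRF2 targets and antioxidant genes 9 of 20 fell and 3 rose (median -0.31). Gpx4, which reduces lipid peroxides, fell by 1.23 and Gsta3, a glutathione transferase, by 1.40. Gclc, which starts glutathione synthesis, rose by 0.73 and Gstm1 by 0.94, from 261.7 to 417.9 CPM on chow to 477.5 to 870.7 CPM on HFD (adjusted p = 3.28e-05).

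Leptin was the 1 secreted adipocyte protein whose mRNA was called higher. Sfrp5, named after its value had been seen, had a larger log2 fold change of 2.15 that was not called (adjusted p = 0.0112). Lep (chromosome 6, 29060220 to 29073877) lay at 230.3 to 1290 CPM on chow (median 622.9) and at 1120 to 2062 CPM on HFD (median 1711). The groups overlapped only at their edges, and the log2 fold change was 1.28 (SE 0.293, adjusted p = 0.00241), or 0.79 without the 4 mice (adjusted p = 0.00607). Adipoq, adiponectin, lay at 1812 to 2465 CPM and 1321 to 2133 CPM and was not called (log2 fold change -0.34, adjusted p = 0.0283), but was called lower without the 4 mice (-0.46, adjusted p = 0.00591). In all, 1 of 17 secreted protein genes rose and 4 fell (median -0.22), while DESeq2 called 3 higher and 6 lower. After the length trend was taken out 2 rose and 4 fell, and without chow mouse 1, 2 rose and 3 fell. Retn, resistin, fell by 1.03, Rarres2, chemerin, by 0.64 and Nampt and Nrg4 by 0.55 and 0.61, whereas Cfd, adipsin, had a log2 fold change of -0.90 that was not called (adjusted p = 0.0204). Retn was not called without the 4 mice (-0.47), nor Nrg4 without chow mouse 1 (-0.52). Among receptors that control lipolysis, Adrb3, the beta-3 adrenergic receptor, fell by 1.25 (143.2 to 450.7 CPM on chow, 54.1 to 191.4 CPM on HFD, adjusted p = 0.00376) and was not called without chow mouse 1 (-1.23) or without the 4 mice (-0.86). Hcar2, the niacin receptor, fell by 1.45, and Adra1a and Ptger3 rose by 0.78 and 0.86. Neither rise was called without the 4 mice (0.43 and 0.84) or after the length trend was taken out, and Ptger3 was not called without chow mouse 4 (0.76).

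Some genes linked to the growth of fat pads, most of them imprinted, rose. Of 17 tested 7 rose and none fell (median 0.72), a share of 41.2%, and they are long, with a median gene model of 6667 bases. The other 10 were not called, and 3 of the 17 log2 fold changes were negative, H19 (-1.64), Dlk1 (-0.71) and Cdkn1c (-0.47), which were named after their values had been seen. After the length trend was taken out 5 rose. Peg3, a paternally expressed zinc finger gene (chromosome 7, 6703892 to 6730431), lay at 5.59 to 29.8 CPM on chow (median 21.3) and 87.4 to 281.8 CPM on HFD (median 153.5). Its log2 fold change was 3.12 (SE 0.413, adjusted p = 5.36e-05), and that of its imprinted neighbour Zim1 was 3.82 (SE 0.509, adjusted p = 3.44e-05). Peg10, derived from a retrotransposon, rose by 2.47, from 2.5 to 16.5 CPM to 23.2 to 40.6 CPM, and Plagl1 by 2.05. Mest, the gene of this list best known to follow fat expansion, had a log2 fold change of 1.63 that was not called.

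Among 14 adipocyte transcription factors, Ebf1 and Zfp423, which take part in adipocyte commitment, rose by 1.26 and 0.93, and Cebpa and Cebpb were 2 of the 4 that fell, by 0.64 and 0.73. Neither Cebpa nor Cebpb was called without chow mouse 1 (-0.61 and -0.74), and Cebpb was not called without chow mouse 4 (-0.67). Insulin signalling genes moved in both directions, with 6 of 19 higher and 2 lower (median 0.10), and 4 of each after the length trend was taken out. Akt2, the kinase through which insulin raises glucose uptake, fell by 0.58 and was not called without chow mouse 1 (-0.51), and Igf1r rose by 0.70. Of 19 clock genes 5 fell and none rose (median -0.18), and Bhlhe41, a repressor of the clock, was lower by 1.19. Without the 4 mice 2 clock genes fell.

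The endothelial, collagen and matrix remodelling lists held more rises than falls, with 50%, 25% and 20.7% called higher beside 13.8% of all genes. Of 7 mural cell markers 1 rose and 1 fell (median 0.52). Of 12 endothelial markers 6 rose and none fell (median 0.39), and 6 rose after the length trend was taken out. Pecam1, the adhesion molecule CD31, lay at 171 to 314.8 CPM on chow and 479.4 to 683.2 CPM on HFD (log2 fold change 1.08, SE 0.136, adjusted p = 1.57e-05), and Cdh5, VE-cadherin, rose by 0.94. The summed endothelial markers lay at 1858 to 2610 CPM on chow and 2403 to 3293 CPM on HFD (2-sided exact permutation test, p = 0.00167, adjusted p = 0.00999 over 18 measures). The 12 markers did not move alike, since Kdr, Flt1 and Vwf had log2 fold changes of 0.22, 0.35 and 0.30 that were not called and those of Egfl7 and Cldn5 were -0.40 and -0.16. Of 20 collagens 5 rose and none fell (median 0.40), for example Col5a2 by 0.66 and Col16a1 by 1.09. After the length trend was taken out 3 rose and 1 fell, beside 1939 higher and 2485 lower of all 16243 genes. Col16a1 was not called without the 4 mice (1.02). Among 29 matrix remodelling genes 6 rose and 2 fell. Without chow mouse 4, 3 rose and 2 fell, beside 2061 higher and 2499 lower of all 16522 genes in that fit. Thbs2, a matricellular protein, rose from 42.3 to 87.6 CPM to 133.8 to 223.7 CPM (log2 fold change 1.42, SE 0.177, adjusted p = 1.57e-05), and Mmp11, a protease made by adipose stroma, fell from 557 to 1904 CPM to 143.4 to 411.5 CPM (log2 fold change -1.80, SE 0.278, adjusted p = 0.000113).

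Ligands and receptors of the TGF-beta family rose in 6 of 19 cases and fell in none (median 0.27). The rises numbered 4 without chow mouse 4, 3 without chow mouse 1 and 3 without the 4 mice, and after the length trend was taken out 4 rose and 1 fell. The ligand genes Bmp4 and Bmp2, which act on adipocyte precursors, had the largest rises. Bmp4 lay at 1.85 to 7.68 CPM on chow (median 4.52) and 10.9 to 22.2 CPM on HFD (median 16.4), without overlap (log2 fold change 1.89, SE 0.27, adjusted p = 5.15e-05). Bmp2 rose by 1.31, and Ltbp4, which holds latent TGF-beta in the matrix, by 1.02, from 172.9 to 274.5 CPM to 312.5 to 559.9 CPM.

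Immune lists gave few calls. Of 13 macrophage markers 1 rose and 1 fell (median -0.04), Mertk by 1.00 and C1qa by 0.81, and C1qa was not called without chow mouse 4 (-0.83) or chow mouse 1 (-0.84). Of 11 tested markers of lipid-associated macrophages 1 rose and 2 fell, although the median was 0.89 and 9 log2 fold changes were positive. At an unadjusted p under 0.05, 5 were higher and 2 lower, and DESeq2 called 4 higher and 2 lower. Fabp5 was 1 of the 2 that fell, by 0.89, and without the 4 mice none rose and 1 fell. Summed, the markers lay at 1119 to 1624 CPM on chow (median 1229) and 759.7 to 1564 CPM on HFD (median 1044). The mean of the sum went from 1328 to 1047 CPM, and that of Fabp5 alone, which is also on the fatty acid uptake list, from 363.4 to 200.2 CPM. A 2-sided exact permutation test of the summed markers gave p = 0.0543 (adjusted p = 0.195 over 18 measures). Itgax, the CD11c chain, lay at 3.17 to 14.7 CPM on chow and 9.85 to 36.9 CPM on HFD (log2 fold change 1.37, SE 0.384, adjusted p = 0.00992) and was called in 3 of the 14 fits that left out 1 mouse. Trem2 and Gpnmb had log2 fold changes of 0.89 and 0.91 that were not called. Of 10 resident macrophage markers 2 rose, Retnla and Cd163, by 1.39 and 0.74, and none was called lower. The median was -0.18, and 6 of the 10 log2 fold changes were negative. Without chow mouse 4 Retnla was not called (1.31), without chow mouse 1 Cd163 was not (0.68), and without the 4 mice neither was. Of 26 chemokine and cytokine genes 2 rose and none fell, Nos2 by 0.93 and Cxcl9 by 0.44. Nos2 was not called without the 4 mice (0.66), nor Cxcl9 without chow mouse 4 (0.39) or chow mouse 1 (0.41). Of 20 interferon-stimulated genes 5 rose and 2 fell (median 0.24), and 5 rose and none fell without the 4 mice. None of 7 MHC class II genes was called by edgeR or DESeq2 or had an unadjusted p under 0.05. None of 18 cell cycle genes was called by edgeR, 1 was called by DESeq2 and 3 had an unadjusted p under 0.05.

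**Figure D4:**
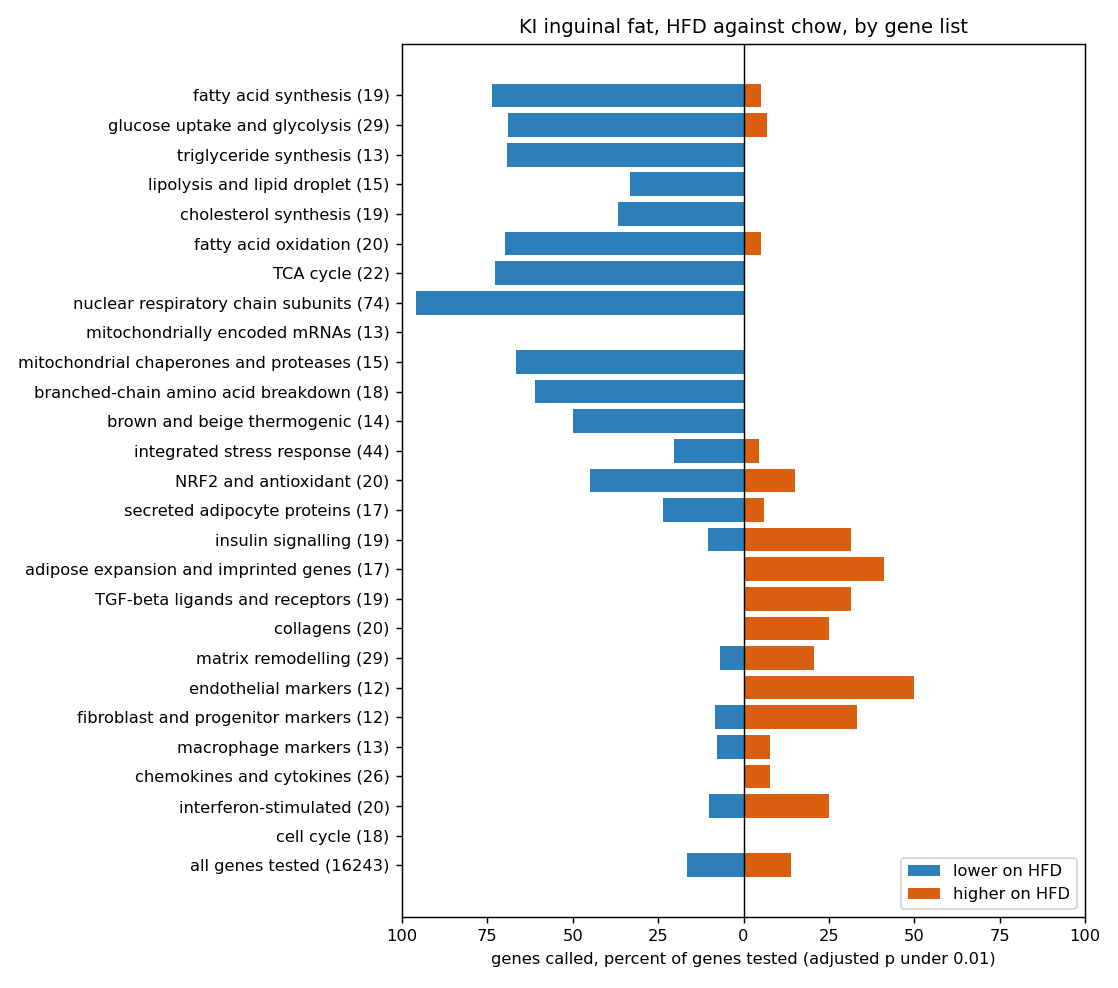
Percent of the tested members of each gene list (number tested in brackets) called lower (bars to the left) or higher (bars to the right) on HFD in KI mice, with all genes tested at the foot. Respiratory chain subunits (95.9% lower) and fatty acid synthesis (73.7% lower) lie far from the 16.5% of all genes, and endothelial markers (50%) and imprinted and expansion genes (41.2%) have the longest bars to the right.

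The largest rises among genes without overlap were of another kind. Of the 50 with the highest fold changes 9 were protein-coding, against 36 of the 50 with the largest falls. Of the first 10, 5 are annotated as antisense, 2 as TEC (a provisional class), 2 as processed transcripts and 1 as protein-coding, and all overlap a protein-coding gene on the opposite strand. A930005N03Rik (chromosome 1, 34269882 to 34271128) lay at 0.196 to 0.794 CPM on chow and 10.8 to 22 CPM on HFD (log2 fold change 4.94, SE 0.299, adjusted p = 5.68e-08). It overlaps Dst, a cytoskeletal linker gene, which rose by 1.19. Gm15419 (log2 fold change 4.65) overlaps Col4a2, a basement membrane collagen gene, itself higher by 0.59. The highest of all, Gm27206, had 3 reads over the 6 chow mice and 495 over the 8 HFD mice, and overlaps Plcg1, which rose by 0.52. Gm43980 and Gm26826 had 2 chow reads each, too few for a fold change.

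Of the other 5 of these 10, 1700094J05Rik, Gm16726, Gm43915, Gm9821 and Gm14471 had log2 fold changes of 4.14 to 4.37 from 4 to 14 chow reads. Whether reads were counted by strand is not given in the sources used here, and without strand the reads of such a pair cannot be told apart. The 8 of these 10 that were tested in WT mice had log2 fold changes of 2.63 to 4.84 there, for example 4.28 for A930005N03Rik, 3.72 for Gm15419 and 2.63 for Gm43915, and 4.84 for Gm9821. After Gm9821, the largest rises among protein-coding genes were those of Zim1, Vash1 and Peg3, and Vash1, an inhibitor of angiogenesis, went from 0.294 to 1.92 CPM to 6.66 to 11.4 CPM (log2 fold change 3.62, SE 0.326, adjusted p = 8.27e-07).

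The falls after Slc2a5 and Elovl6 included Ttc25, a ciliary protein gene (log2 fold change -4.26), Atp4b, the beta subunit of the gastric proton pump (-3.92), and Sorcs2, a sorting receptor gene (-3.69). Gm9885, AA914427 and 2310069B03Rik fell by 3.49, 3.47 and 3.41. In each of Sorcs2, Gm9885, AA914427 and 2310069B03Rik chow mouse 1 lay far above the other chow mice, as for Fasn, and without that mouse their fold changes were -2.91, -2.47, -2.61 and -2.22, all still called. Without the 4 mice 2310069B03Rik was not called (-1.72). Gm9885 is antisense to Ntrk3.

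Most of the diet difference had the same sign in WT mice, which share both tables and the depth difference with KI mice. In WT mice 4514 of 16318 genes were called (27.7%), 1998 higher (12.2%) and 2516 lower (15.4%). Of 4855 genes called in KI mice and tested in both genotypes, 4612 (95%) had the same sign in WT mice, and 2959 were called in both, which is 60.9% of the KI calls and 66.3% of the WT calls. The difference itself, the KI fold change minus the WT fold change, was called for 110 of 17400 genes (0.632%), 36 higher (0.207%) and 74 lower (0.425%). Of the 74, 62 were called lower in KI mice, 46 of these without a call in WT mice, and 22 were called higher in WT mice. Of the 36, 13 were called higher in KI mice and 25 were called lower in WT mice.

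Fatty acid synthesis held 7 of the 74 lower differences among its 20 genes. Fasn fell by 1.00 in WT mice, from 839.4 to 3181 CPM on chow (median 1783) to 476.4 to 1594 CPM on HFD (median 912.3), and the difference was -2.89 (SE 0.544, adjusted p = 0.00404). The HFD ranges of the genotypes overlapped, and the chow medians were 4601 CPM in KI and 1783 CPM in WT mice. Slc25a1 did not pass the test in WT mice (log2 fold change -0.09, adjusted p = 0.751), and the difference was -2.92 (SE 0.458, adjusted p = 0.00093). Elovl6 gave -3.56 and Acly -2.54. Without chow mouse 1 the differences were -2.29 for Fasn, -2.20 for Slc25a1, -2.94 for Elovl6 and -2.07 for Acly, all still called, and without the 4 mice they were -1.90, -1.94, -2.07 and -1.56, of which those of Slc25a1 and Acly were called and those of Fasn (adjusted p = 0.0712) and Elovl6 (adjusted p = 0.0254) were not. Thrsp fell in both genotypes, by 2.75 and 2.19, and its difference of -0.55 was not called (SE 0.405, adjusted p = 0.542). Fads1 moved in opposite directions, since it fell by 0.72 in WT mice, and the difference was 1.47 (SE 0.19, adjusted p = 5.6e-05).

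Glycolysis held 4 lower differences among 30 genes, and triglyceride synthesis and lipid droplets 1 each. Cholesterol synthesis also held 1 among 20 genes, with a median difference of -0.55. DESeq2 called 3 of its genes lower, and 11 had an unadjusted p under 0.05, all lower. In WT mice 4 of the 20 cholesterol synthesis genes rose on HFD and 3 fell. Pkm fell by 0.34 in WT mice, a difference of -1.35 (adjusted p = 0.0012), and Pfkl and Eno1, named after their values had been seen, gave -1.28 and -1.18. Agpat2 and Plin2 had log2 fold changes of 0.17 and 0.22 in WT mice, neither called, and differences of -1.97 and -1.46, neither of them called without the 4 mice (-1.27 and -1.06). Angptl8 rose by 0.85 in WT mice, from 3.96 to 10.2 CPM to 7.11 to 21.7 CPM, and its difference was -2.85 (SE 0.396, adjusted p = 0.000186). None of the 74 respiratory chain subunits had a called difference by edgeR or DESeq2, and 13 had an unadjusted p under 0.05, all lower (median difference -0.20). Of the mitochondrially encoded mRNAs, 12 of 13 rose in WT mice (median 1.42), and 1 of 13, mt-Nd2, had a called difference, of -1.58, while DESeq2 called 8. The mitochondrially encoded share of counts was 5.4% to 14.8% in WT HFD mice against 2.16% to 3.68% in KI HFD mice.

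The most negative differences were those of Elovl3, Hephl1, Slc2a5, Atp4b and Hapln4. Elovl3, a fatty acid elongase of brown and beige fat, had 195 reads in KI mice on chow and 32 on HFD, and 4 and 173 in WT mice, so the fitted difference of -8.27 rests on very few WT chow reads. Slc2a5 was too low in WT mice on either diet to be tested there (at most 0.82 CPM), and its difference was -5.13. Hephl1, a copper-containing ferroxidase gene, fell by 2.68 in KI mice and rose by 2.79 in WT mice, and the difference was -5.46 (SE 0.632, adjusted p = 1.56e-05), or -4.25 without the 4 mice. Atp4b had 1 and 7 reads in WT mice on chow and HFD. Hapln4 rose by 4.42 in WT mice and had at most 0.761 CPM in any KI mouse, too low to be tested in KI mice alone.

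The most positive differences were those of Agt, Hspb7, Vstm2b, Slc9b2 and D430019H16Rik. Agt, angiotensinogen, fell by 3.94 in WT mice, from 2.83 to 119.5 CPM (median 29.2) to 1.25 to 3.16 CPM (median 2.37). In KI mice it lay at 4.97 to 19.1 CPM on chow and 9.7 to 25.7 CPM on HFD, with a log2 fold change of 0.71 that was not called (adjusted p = 0.0507), and the difference was 4.67 (SE 0.7, adjusted p = 0.00063). Hspb7, a small heat shock protein gene, rose by 2.22 in KI mice, where its diets did not overlap (1.97 and not called without the 4 mice), and its log2 fold change in WT mice was -1.52 (adjusted p = 0.0159). Of the 18 secreted adipocyte protein genes tested, 2 had a called difference, Agt and Rbp4, both positive. Rbp4, retinol-binding protein, fell by 1.11 in WT mice and had a log2 fold change of 0.34 in KI mice, a difference of 1.46 (adjusted p = 0.00453). Among other genes, Timp4 and Gpx3 fell in WT mice, by 1.44 and 1.92, were not called in KI mice (0.30 and 0.10), and differed by 1.75 and 2.03. Apoe fell by 1.11 in WT mice, was not called in KI mice (-0.07), and differed by 1.05. Gstm1, a glutathione transferase, rose in KI mice and had a log2 fold change of -0.48 in WT mice that was not called, a difference of 1.43. Rbp4, Timp4 and Gpx3 were named after their values had been seen. Of these genes Timp4 and Gstm1 still had a called difference without the 4 mice, and Agt, Hspb7, Rbp4, Gpx3 and Apoe did not (4.72, 3.49, 1.44, 1.86 and 0.93).

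**Figure D5:**
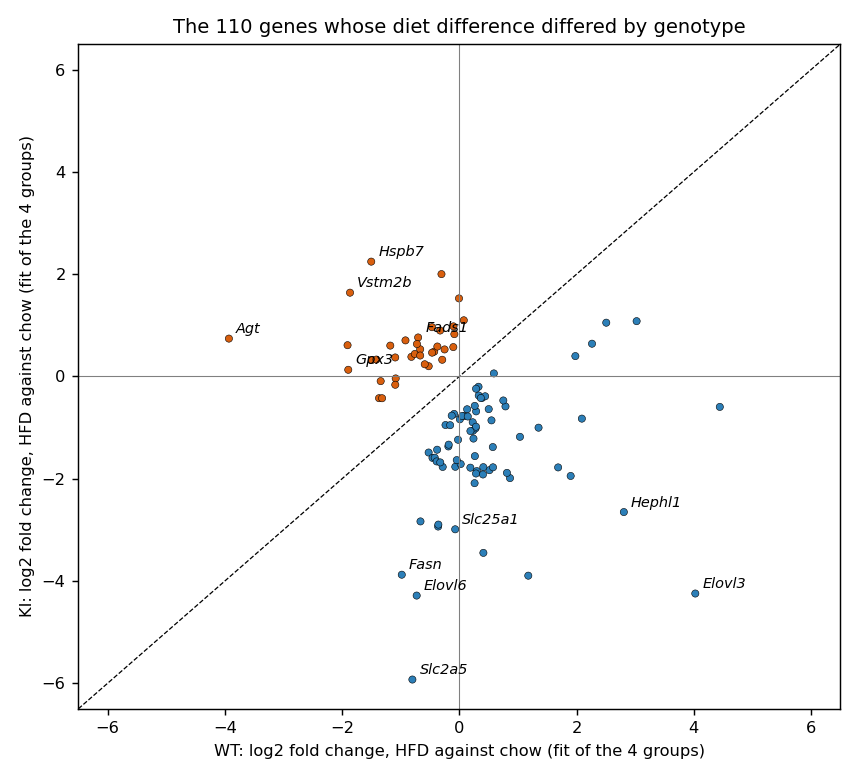
Log2 fold change, HFD over chow, in WT mice (x axis) and KI mice (y axis), both from the fit of the 4 inguinal groups, for the 110 genes whose difference was called (orange, difference above 0; blue, below 0; dashed, equal change). Fasn (-0.98, -3.88) and Slc25a1 (-0.07, -2.99) lie far below the dashed line, and Agt (-3.93, 0.74) and Fads1 (-0.70, 0.76) above it.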

How the data were processed

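Before deposit the authors used cutadapt for adapters, STAR for alignment to GRCm38, SAMtools for sorting and featureCounts for counts per gene (tools and build as named in the submitters' processing notes; versions and the strand setting are not given in the sources used here). Libraries were poly(A), paired-end reads of 150 bases, from RNA with an integrity number of at least 8. The deposited counts are whole, not normalized, and come in 3 tables with gene length in bases as a further column. The 12 columns of the brown fat table were not used here. Entries without counts and repeats of a symbol were dropped, which left 52853 genes.

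Each diet comparison was fitted in its own groups with edgeR 4.0.16 in R 4.3.3 (filterByExpr, TMM, robust quasi-likelihood, diet as the only term, Benjamini-Hochberg adjustment over all genes tested), and the difference between genotypes as the interaction in a fit of the 4 inguinal groups. Adjusted p values are from edgeR unless an exact permutation test is named. Printed CPM levels are scaled by TMM over all 29 inguinal mice. The code was tested on simulated counts. Alternatives were DESeq2 1.42.0, other scalings and filters, equal depth, a replicate block, each mouse left out, and offsets from a loess curve (span 0.5) of each mouse's counts over gene length, alone or with GC content. Named genes are those the study discusses, the 10 largest rises and falls without overlap at a mean of 1 CPM or more, up to 3 rises and 3 falls in each list with its most abundant member, and the 5 extremes of the difference in each direction. Others are named as chosen later. The members and lists were chosen with earlier results of these data known. P values measure the spread between mice, and counts cover no other error. Promoters are from the RefSeq table for GRCm38.p6. Some genes that the naming rule selects are not reported here.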

Additional observations from a re-analysis of the deposited data

Results flagged for a closer look

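Of 124 groups of values tested within a diet, 31 held a mouse whose gap to the next was beyond Dixon's 95% limit for its group size, where chance gives about 1 in 20.

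Chow mouse 4 had 3.84% of its counts in mitochondrially encoded genes (next 2.01%), 102164 CPM of muscle markers (next 509.9) and 32122 CPM of adipocyte markers (next 39977). Chow mouse 3 had 1784 CPM of macrophage markers (next 1153), 340.7 CPM of T and NK cell markers (next 78.5) and 118.2 CPM of lymph node stroma markers (next 24). HFD mouse 2 had a mitochondrially encoded share of 3.68% (next 2.76%), 1723 CPM of B cell markers (next 192.4), 503.8 CPM of T and NK cell markers (next 49.3), 107.4 CPM of lymph node stroma markers (next 6.53) and the lowest endothelial sum, 2403 CPM (next 2928). In the same mouse Atf4, Atf5, Ddit3 and Mvk were lowest of the HFD group, at 240.5, 457.4, 69.3 and 19.99 CPM (next 304.6, 780.2, 92.9 and 25.6). HFD mouse 5 had 2121 CPM of macrophage markers (next 1064) and 20.7 CPM of Gdf15 (next 6.59). HFD mouse 3 had 40.5 CPM of keratin markers (next 6.37) and 217.7 CPM of Hmgcs1 (next 153.6).

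Chow mouse 1 was the highest chow mouse for Fasn (19258 CPM, next 8175), Slc2a5 (177.3, next 47.8), Cfd (9381, next 4463), Elovl3 (12.5, next 3.53), Sorcs2 (57.7, next 19.6), AA914427 (46.7, next 15.6), Gm9885 (10.5, next 1.86) and 2310069B03Rik (8.58, next 1.67). HFD mouse 1 was highest for Elovl6 (21.8 CPM, next 12.9). Chow mouse 6 was highest for 1700094J05Rik and Gm15419 (0.339 and 0.904 CPM), and chow mouse 5 for Gm26826 (0.176 CPM), values of a few reads.

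The diet difference of KI mice departed from that of WT mice, by the interaction test, for 34 of the genes named by rule or by later choice, of which 14 were also called without the 4 mice. On the log2 scale the differences were 4.67 for Agt, 3.75 for Hspb7, 3.50 for Vstm2b, 2.52 for Slc9b2 and 2.31 for D430019H16Rik. They were -8.27 for Elovl3, -5.46 for Hephl1, -5.13 for Slc2a5, -5.07 for Atp4b, -5.04 for Hapln4, -3.86 for AA914427, -3.56 for Elovl6 and -2.89 for Fasn. Further negative differences were -2.92 for Slc25a1, -2.85 for Angptl8, -2.54 for Acly, -2.35 for Scd2, -2.18 each for Me1 and Mmp11, -1.97 for Agpat2, -1.59 for Pnpla3, -1.58 for mt-Nd2, -1.46 for Plin2, -1.41 for Fabp5, -1.35 for Pkm, -1.30 for Ctsd, -1.28 for Pfkl and -1.18 for Eno1. Further positive ones were 2.03 for Gpx3, 1.75 for Timp4, 1.47 for Fads1, 1.46 for Rbp4, 1.43 for Gstm1 and 1.05 for Apoe.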

How the results depend on the processing

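Diet coincides with table, depth and libraries per mouse, so no setting separates them, and thinning all mice to equal depth left 4512 calls. The 4923 calls in KI mice became 2153 with a replicate block, although same-numbered mice do not deviate together (correlations -0.31 to 0.25, so that the numbers were not taken as pairs), 2799 at an adjusted p below 0.001, and 4273 to 5070 with each mouse left out. DESeq2 called 5833. The 363 large effects became 71 with the replicate block, 174 among genes with at least 10 counts in every mouse, 175 without the 4 mice and 272 to 419 with each mouse left out (272 without chow mouse 1). The 110 differences between genotypes became 168 with at least 10 counts, 42 with the replicate block, 27 without the 4 mice, 414 by DESeq2, 500 at an adjusted p below 0.05, and 69 to 269 with each mouse left out (69 without KI chow mouse 1, 71 without KI HFD mouse 7, 73 without WT chow mouse 7, 206 without WT chow mouse 4, 220 without WT HFD mouse 7, 269 without KI chow mouse 5). The 4514 WT calls became 6831 at an adjusted p below 0.05. The cause of these shifts was not tested, apart from the stricter or looser thresholds and the smaller number of mice or genes. The mean difference in keratin markers ran from -3.4 CPM (without HFD mouse 3) to 1.91 CPM with each mouse left out. Over the 227 named genes, no fold change changed sign under a call in 3167 fits with a mouse left out, where 151 calls were lost and 15 gained, or in 2915 values under the other settings, where 200 were lost and 21 gained.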
